A study of Mus musculus with 8 samples.

Results

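The genes described here are 10 genes of the FGF-ERK pathway, chosen by symbol from the 24421 genes counted in each library. They are the ligands Fgf4 and Fgf5, the receptors Fgfr1, Fgfr2 and Fgfr3, the feedback inhibitors Spry2, Spry4 and Dusp6, and the ETS transcription factors Etv4 and Etv5. The rule uses symbols and no measured value, but the 10 genes were chosen with earlier results of these data known. All 10 symbols were found. The study compared short reads with long reads from Oxford Nanopore Technologies (ONT) kits in detecting transcriptome changes during differentiation, and only the long-read counts were analysed here. RNA came from R1, an established line of mouse embryonic stem cells (ESCs), taken before (Undiff) and after (Day4) differentiation. Direct RNA libraries were made from 500 ng of polyadenylated RNA, whose native strands pass through the pore. The cDNA libraries were made from 50 ng, which was copied into cDNA and amplified by PCR. Each of the 4 groups (Direct RNA Undiff, Direct RNA Day4, cDNA Undiff and cDNA Day4) had 2 replicates, giving 8 libraries. For Day4, embryoid bodies were grown for 4 days without LIF, the cytokine that holds ESCs undifferentiated, and then for 4 days with retinoic acid (RA). The dose was 2 µM in the design text and the methods, while the treatment label gives the same figure in mM. The labels name embryoid bodies as the tissue of every library, whereas the methods describe Undiff cells as kept in medium with LIF. No group carries a mutation or transgene by its label, and all libraries come from this 1 line. By the study's methods the replicates were grown and treated separately, and the RNA served both kits.

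FGF ligands bind FGF receptors together with heparan sulphate, and the receptors signal through Ras, Raf and MEK to the kinase ERK. ERK activity raises transcription of Etv4, Etv5, Spry2, Spry4 and Dusp6. The Sprouty proteins act back on the signal near the receptor and Ras, and Dusp6 removes phosphates from ERK itself. In mouse ESCs, Fgf4 is the main autocrine ligand and its signal prepares the cells to leave the naive pluripotent state, while Fgf5 is a marker of the later, primed state. RNA levels do not measure ERK activity.

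Reads on genes numbered 283461 to 907489 in Direct RNA and 948657 to 2088592 in cDNA. Levels are given as CPM, reads per 1e6 reads on genes. Where a gene had no read, 3 reads were taken as the upper limit, which came to between 1.44 and 10.6 CPM a library and was highest in Direct RNA. Of 10 markers of pluripotent stem cells, 9 fell in Direct RNA and 8 in cDNA. Their summed level went from between 5880 and 6094 CPM in Undiff to between 141 and 233 CPM in Day4 in Direct RNA. In cDNA the range was 2143 to 3027 CPM in Undiff and 39.4 to 164 CPM in Day4. Of 7 endoderm markers 4 rose in Direct RNA and 3 in cDNA, and their sum went from 11.5 to 14.3 CPM up to 649 to 1016 CPM in Direct RNA, and from 1.05 to 4.79 CPM up to 137 to 196 CPM in cDNA. Of 6 fibroblast or mesenchyme markers 5 and 4 rose, with sums of 7.71 to 14.3 CPM in Undiff and 1280 to 2960 CPM in Day4 in Direct RNA, and of 4.31 to 9.49 and 227 to 260 CPM in cDNA. Of 5 mesoderm markers 2 and 1 rose, with sums of 14.3 CPM in each Undiff library and 293 to 437 CPM in Day4 in Direct RNA, and of 4.31 to 8.43 and 45.5 to 122 CPM in cDNA. Of 7 formative or primed markers 2 fell and 1 rose on each kit. The mean count for testing was reached by all 10 pluripotency, 4 endoderm, 5 fibroblast or mesenchyme and 2 mesoderm markers on each kit. It was reached by 5 formative or primed markers in Direct RNA and 7 in cDNA. Among all genes tested, 7.67% fell and 9.54% rose in Direct RNA, and 9.24% fell and 8.69% rose in cDNA. Of 6 neural markers, 2 reached that count in Direct RNA and 3 in cDNA. DESeq2 called Tubb3 lower on both kits and 0 higher, where Nes had an unadjusted p of 0.05 or less on both, and edgeR called Nes higher on both. These shifts move with every difference between states below, and their part in it was not tested. In bulk RNA, fewer cells of a type and less RNA per cell cannot be told apart.

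The sequences just before the start site are shown for the ligand that fell and the ligand that rose, for the ETS factor that fell most, and for the feedback inhibitors whose levels differed most between kits. Each is the 250 bases upstream of the RefSeq start on GRCm38.p6, written 5′ to 3′ on the strand of the gene. Capitals mark GGGCGG (the GC box) and CCAAT, or the same letters read on the opposite strand as CCGCCC and ATTGG.
Fgf4 (chr7:144861136-144861385, plus strand): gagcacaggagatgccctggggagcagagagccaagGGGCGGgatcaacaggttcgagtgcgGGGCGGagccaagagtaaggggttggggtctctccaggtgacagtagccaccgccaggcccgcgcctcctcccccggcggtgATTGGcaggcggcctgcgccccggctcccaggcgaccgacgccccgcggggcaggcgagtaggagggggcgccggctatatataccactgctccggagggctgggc
Fgf5 (chr5:98253934-98254183, plus strand): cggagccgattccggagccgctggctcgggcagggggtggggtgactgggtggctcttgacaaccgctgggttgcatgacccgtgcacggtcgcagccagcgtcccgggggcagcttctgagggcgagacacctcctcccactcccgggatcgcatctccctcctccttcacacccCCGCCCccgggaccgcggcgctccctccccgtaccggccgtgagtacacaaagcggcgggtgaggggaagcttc
Etv5 (chr16:22439571-22439820, minus strand): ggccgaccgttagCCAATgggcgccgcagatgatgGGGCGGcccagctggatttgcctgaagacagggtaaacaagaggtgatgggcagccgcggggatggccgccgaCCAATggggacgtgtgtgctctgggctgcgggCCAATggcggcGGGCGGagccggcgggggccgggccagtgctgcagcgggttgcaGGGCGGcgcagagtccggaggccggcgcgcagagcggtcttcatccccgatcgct
Spry2 (chr14:105896820-105897069, minus strand): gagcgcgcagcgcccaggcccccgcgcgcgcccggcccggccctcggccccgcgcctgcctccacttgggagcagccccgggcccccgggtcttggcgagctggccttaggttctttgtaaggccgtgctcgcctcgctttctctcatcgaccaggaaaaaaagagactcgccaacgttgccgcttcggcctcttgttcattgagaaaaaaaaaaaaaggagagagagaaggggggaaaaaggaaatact
Dusp6 (chr10:99262981-99263230, plus strand): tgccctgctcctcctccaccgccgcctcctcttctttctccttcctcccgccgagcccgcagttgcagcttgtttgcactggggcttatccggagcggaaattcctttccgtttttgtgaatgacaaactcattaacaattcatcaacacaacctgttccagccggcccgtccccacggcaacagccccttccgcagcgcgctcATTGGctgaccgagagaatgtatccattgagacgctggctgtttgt
The Fgf4 window holds 2 GC boxes and 1 CCAAT on the opposite strand, 106 to 102 bases before the start. The Etv5 window holds 3 of each, the Fgf5 window 1 GC box, the Dusp6 window 1 CCAAT at 46 to 42 bases, and the Spry2 window neither. GC content was 71.2% for Fgf4, 70.8% for Fgf5, 71.2% for Etv5, 62.4% for Spry2 and 56.4% for Dusp6, against a mean of 53.2% over all windows. Windows were given for 7 of the 10 genes, and 4 motifs were searched in them on both strands. These were CCGGAAG, bound by ETS factors, 1 exact form of the serum response element, TGACTCA, the AP-1 site, and ATGCAAAT, the octamer bound by Oct4. None of the 7 windows held any of them, while 6.91%, 0.0609%, 4.46% and 1.60% of all 32851 windows did. GC boxes, CCAAT and TATAAA were added after the windows had been read, and are in 32.7%, 33.8% and 12.4% of all windows. A match is a run of letters and not a measured site.

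Between states, Fgf4, Spry2, Spry4, Etv4 and Etv5 fell on both kits, Dusp6 fell in cDNA, Fgf5 rose in cDNA, and no receptor passed the test. Of the 8720 genes tested on both kits, 5.18% were called lower on both, as were 5 of the 10 genes, and 6.19% higher on both, as was none of the 10. In Direct RNA, 5 of the 10 genes were called lower and none higher, where 7.67% of the 9646 genes with a mean normalized count of at least 5 were called lower and 9.54% higher. In cDNA, 6 were called lower and 1 higher, where 9.24% and 8.69% of 10271 genes were. To be called, a gene needed that mean count, an adjusted p of 0.05 or less by the DESeq2 Wald test, and a log2 fold change of 1 or more in either direction. The mean count was reached by 8 of the 10 genes in Direct RNA and 9 in cDNA. The 10 genes had a median log2 fold change of -1.86 in Direct RNA and of -1.92 in cDNA. Over every gene of these fits, likewise with no minimum count, the medians were 0.06 (15451 genes) and 0.04 (16669 genes). Setting the gene without reads in a state to its bound did not move either median of the 10 genes at this rounding. Libraries of the 2 states did not overlap for 10 of 10 genes in Direct RNA and 9 of 10 in cDNA, where 67.6% and 66.3% of all genes tested did not overlap either. With 2 libraries against 2 an exact permutation test of a single gene cannot go below p = 0.333, so the tests rest on the spread shared across genes.

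**Figure D1:**
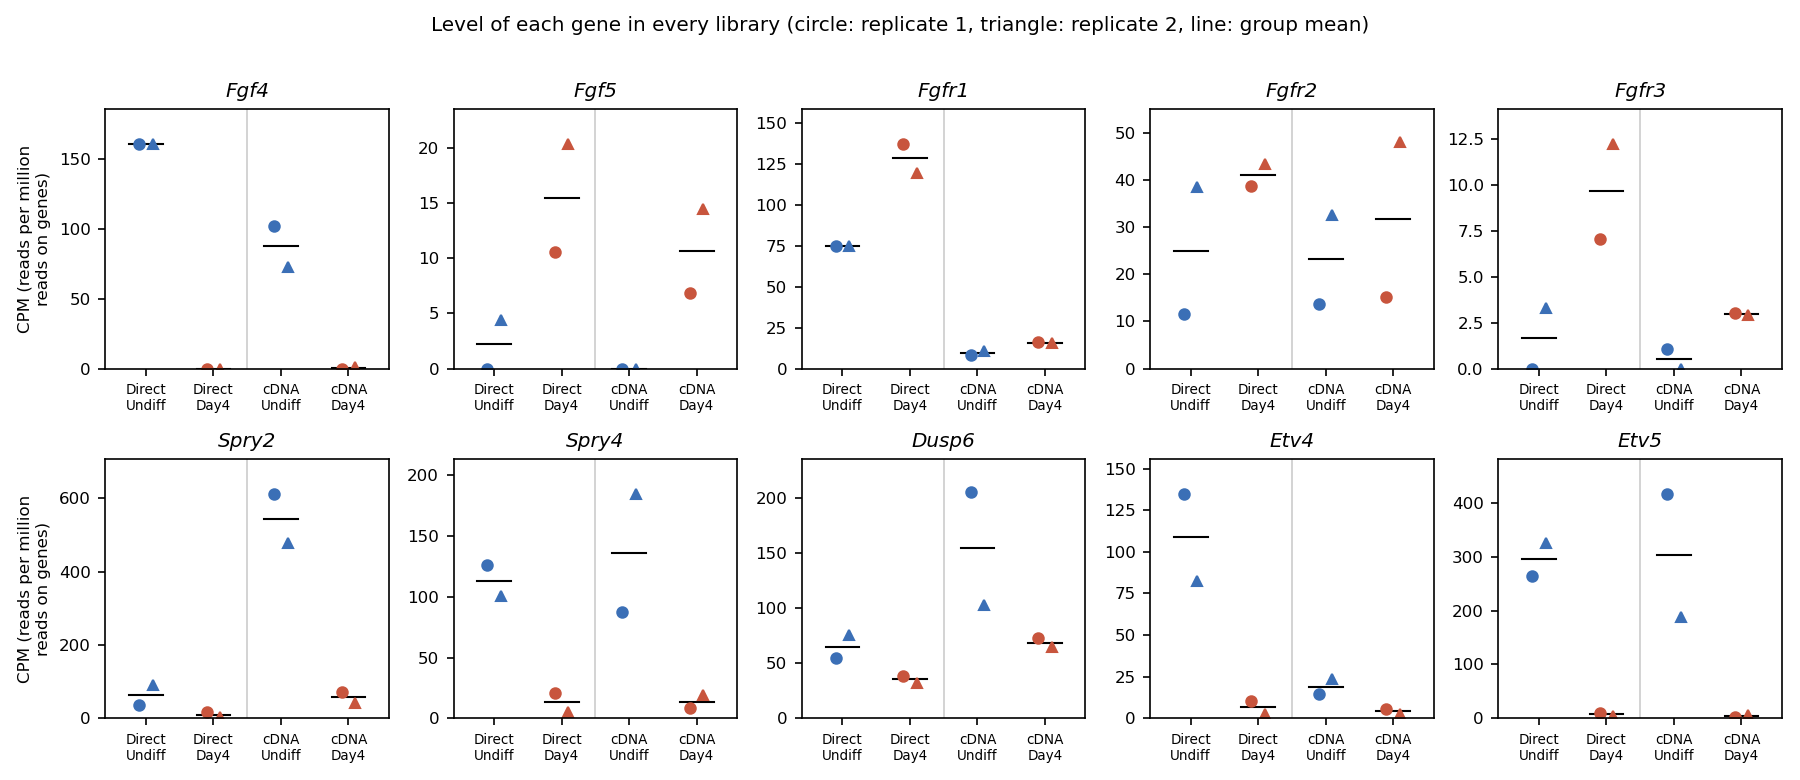
CPM of each of the 10 genes (linear axes from 0, with a different scale in each panel) in the 8 libraries, with blue for Undiff, red for Day4, circles for replicate 1, triangles for replicate 2 and lines for group means of 2 libraries. Fgf4 goes from at least 72.8 CPM in the Undiff libraries to at most 0.963 CPM in the Day4 libraries, whereas the Fgfr2 libraries of the states overlap in cDNA.

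Fgf4, the autocrine ligand of ESCs, lies at chr7:144861386-144865245 (GRCm38.p6, plus strand). It had 56 and 146 reads in the Direct RNA Undiff replicates, which is 161 CPM in each, and no read in either Day4 library. In cDNA it had 97 and 152 reads in Undiff, or 102 and 72.8 CPM, and 0 and 2 reads in Day4. Every Undiff library was therefore far above every Day4 library. In Direct RNA, Fgf4 was at least 54.7-fold lower in Day4, computed against 3 reads over the group. In cDNA the ratio of pooled CPM was 139, with a counting interval of 38.1 to 1156 that rests on the 2 Day4 reads. The fitted log2 fold change was -6.96 ± 1.09 (SE, adjusted p = 1.44e-08, DESeq2) in Direct RNA, where it depends on the prior for a gene without Day4 reads, and -6.81 ± 0.89 (adjusted p = 3.19e-12, DESeq2) in cDNA. Leaving out any 1 library kept both calls, with log2 fold changes of -6.88 to -5.55 and -6.97 to -5.92.

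Fgf5, the ligand known as a marker of primed pluripotency, lies at chr5:98254184-98277033 (plus strand). It had 0 and 4 reads in Direct RNA Undiff and 3 and 15 in Day4, or 10.6 and 20.3 CPM in Day4. In cDNA, no read was found in either Undiff library, and Day4 had 9 and 30 reads, or 6.83 and 14.4 CPM. Both Day4 libraries were above both Undiff libraries on each kit, in the direction opposite to Fgf4. In cDNA it was at least 11.6-fold higher in Day4, against 3 reads over the group, and the fitted log2 fold change was 4.33 ± 1.35 (SE, adjusted p = 0.016, DESeq2). In Direct RNA the pooled ratio was 5.54 (counting interval 1.82 to 22.5) and the log2 fold change 1.88 ± 1.24 (adjusted p = 0.44, DESeq2), with a mean normalized count of 4.31, under the minimum. The cDNA call was lost without any 1 of the 4 libraries, with adjusted p of 0.08 without Undiff replicate 1, 0.311 without Undiff replicate 2, 0.15 without Day4 replicate 1 and 0.63 without Day4 replicate 2 (DESeq2). Of the 7 formative or primed markers listed above, which do not include Fgf5, 2 were lower and 1 higher on each kit.

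Of the reads on both ligands together, Fgf4 had 100% (56 of 56, exact 95% interval 93.6% to 100%) and 97.3% in Direct RNA Undiff, and 100% in both cDNA Undiff libraries. In Day4 it had 0 of 3, 0 of 15, 0 of 9 and 2 of 32 reads. These last shares are loosely bounded, with upper limits of 70.8%, 21.8%, 33.6% and 20.8%. Fgf4 thus held nearly all reads of this pair before differentiation and few or none of them after it.

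Fgfr1, a receptor tyrosine kinase that with Fgfr2 receives the Fgf4 signal in the early embryo, lies at chr8:25518759-25575718 (plus strand). It had 26 and 68 reads in Direct RNA Undiff and 39 and 88 in Day4, which is 74.6 and 74.9 CPM against 138 and 119 CPM. In cDNA it had 8 and 22 reads in Undiff and 21 and 32 in Day4, or 8.43 and 10.5 against 15.9 and 15.4 CPM. Both Day4 libraries were higher on each kit, but the change was small and did not pass the test. The log2 fold change was 0.65 ± 0.47 (SE, adjusted p = 0.52, DESeq2) in Direct RNA and 0.37 ± 0.77 (adjusted p = 0.92, DESeq2) in cDNA, and without shrinkage the lower ends of the 95% intervals were -0.28 and -1.21. An interval this wide does not show that the level stayed the same.

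Fgfr2, whose isoforms bind different sets of FGF ligands, lies at chr7:130162451-130266808 (minus strand). It had 4 and 35 reads in Direct RNA Undiff and 11 and 32 in Day4, or 11.5 and 38.6 against 38.8 and 43.4 CPM. In cDNA there were 13 and 68 reads in Undiff and 20 and 100 in Day4, or 13.7 and 32.6 against 15.2 and 48.1 CPM. Here the replicates of a group stood as far apart as the states, and the cDNA states overlapped. The log2 fold changes were 0.49 ± 0.77 (SE, adjusted p = 0.88, DESeq2) and 0.08 ± 0.68 (adjusted p = 0.96, DESeq2), and the sign turned when single libraries were left out. It was -0.12 in Direct RNA without Undiff replicate 1, and in cDNA -0.38 without Undiff replicate 1 and -0.70 without Day4 replicate 2.

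Fgfr3, a receptor best known from growing cartilage, lies at chr5:33721724-33737068 (plus strand). It had 0 and 3 reads in Direct RNA Undiff and 2 and 9 in Day4, and in cDNA 1 and 0 in Undiff and 4 and 6 in Day4. Both Day4 libraries were above both Undiff libraries on each kit, on few reads, with pooled ratios of 4.51 (counting interval 1.19 to 25.2) and 8.94 (1.27 to 388). All 8 libraries were at or below 12.2 CPM, and the mean normalized counts of 2.76 and 2.46 were under the minimum for a call. The log2 fold changes of 1.52 ± 1.34 and 1.50 ± 1.47 (SE, adjusted p = 0.65 and 0.71, DESeq2) did not pass the test.

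**Figure D2:**
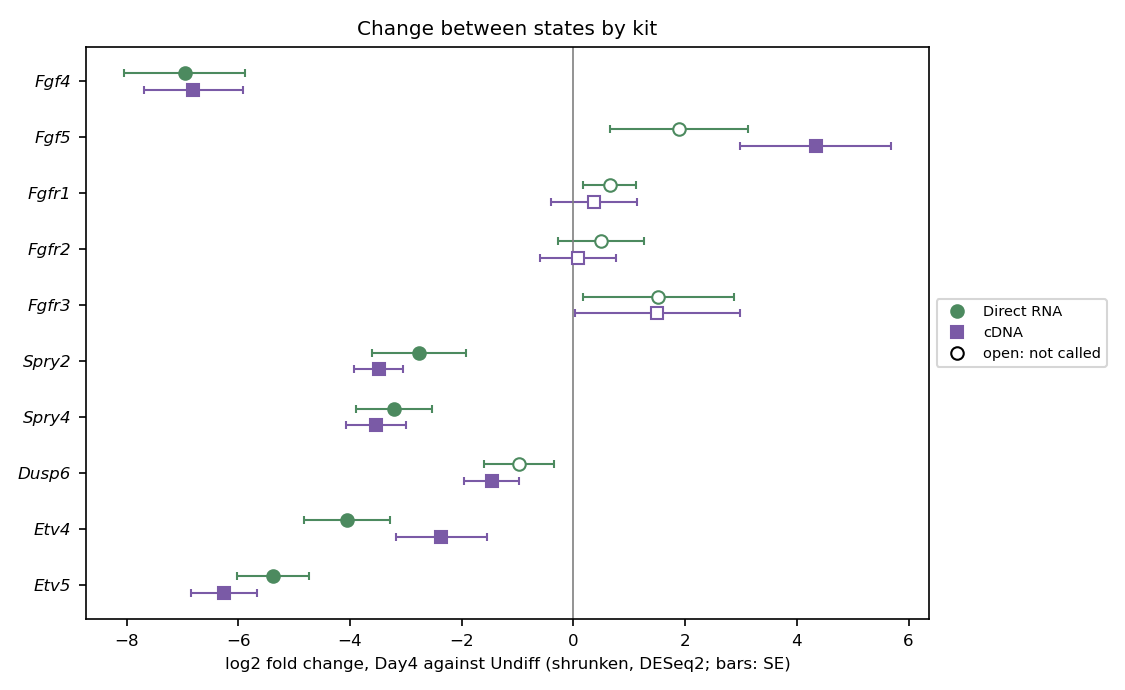
Shrunken DESeq2 log2 fold change of Day4 against Undiff (x axis) for each of the 10 genes, with SE bars, green circles for Direct RNA, purple squares for cDNA and open symbols for values that were not called. Fgf4, both Sprouty genes and both ETS factors lie left of 0 and filled on each kit, the 3 receptors are open on each kit, and Fgf5 is right of 0 and filled in cDNA alone.

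Spry2, a Sprouty inhibitor of receptor signalling, lies at chr14:105891947-105896819 (minus strand). It had 13 and 83 reads in Direct RNA Undiff and 5 and 2 in Day4, or 37.3 and 91.5 against 17.6 and 2.71 CPM. The cDNA libraries held 581 and 997 reads in Undiff and 95 and 89 in Day4, or 612 and 477 against 72.1 and 42.8 CPM. The cDNA libraries therefore rest on many more reads of this gene, and Day4 was below Undiff on both kits. The pooled level was 11.1-fold lower in Direct RNA (counting interval 5.21 to 28.5) and 9.59-fold lower in cDNA (8.23 to 11.2). The log2 fold change was -2.76 ± 0.85 (SE, adjusted p = 0.0138, DESeq2) and -3.49 ± 0.44 (adjusted p = 7.29e-13, DESeq2). The cDNA call held without any 1 library. The Direct RNA call was lost without Undiff replicate 1 (adjusted p = 0.0583, DESeq2), without Undiff replicate 2 (0.956) and without Day4 replicate 2 (0.565), and held without Day4 replicate 1.

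Spry4, the second Sprouty gene here, lies at chr18:38586247-38601347 (minus strand). It had 44 and 91 reads in Direct RNA Undiff and 6 and 4 in Day4, or 126 and 100.3 against 21.2 and 5.42 CPM. In cDNA it had 83 and 386 reads in Undiff and 11 and 39 in Day4, or 87.5 and 185 against 8.34 and 18.8 CPM. Undiff was above Day4 in every library of each kit. Pooled levels were 10.97-fold lower (counting interval 5.79 to 23.4) and 10.5-fold lower (7.82 to 14.3), and log2 fold changes were -3.21 ± 0.68 (SE, adjusted p = 8.32e-05, DESeq2) and -3.53 ± 0.54 (adjusted p = 5.45e-09, DESeq2). The cDNA call held without any 1 library. The Direct RNA call held without Day4 replicate 1, while the adjusted p was 0.0584 without Undiff replicate 1, 0.0783 without Undiff replicate 2 and 0.121 without Day4 replicate 2 (DESeq2).

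Dusp6, the phosphatase that acts on ERK in the cytoplasm, lies at chr10:99263231-99267489 (plus strand). It had 19 and 69 reads in Direct RNA Undiff and 11 and 24 in Day4, or 54.5 and 76.0 against 38.8 and 32.5 CPM. The cDNA libraries gave 195 and 216 reads in Undiff and 96 and 134 in Day4, or 206 and 103 against 72.8 and 64.5 CPM. Day4 was lower on both kits, by less than for the other feedback genes. Pooled levels were 2.04-fold lower (counting interval 1.37 to 3.12) in Direct RNA and 2.00-fold lower (1.70 to 2.36) in cDNA. The fit uses DESeq2 size factors in place of pooled CPM, and in cDNA it gave a larger change than the pooled ratio. The log2 fold change was -0.97 ± 0.63 (SE, adjusted p = 0.43, DESeq2) in Direct RNA, which was not called, and -1.47 ± 0.49 (adjusted p = 0.0274, DESeq2) in cDNA. The cDNA call held without Undiff replicate 2 and was lost without Undiff replicate 1 (adjusted p = 0.582, DESeq2), Day4 replicate 1 (0.192) and Day4 replicate 2 (0.5).

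Etv4, an ETS transcription factor of the PEA3 group, lies at chr11:101769747-101785310 (minus strand). It had 47 and 75 reads in Direct RNA Undiff and 3 and 2 in Day4, or 135 and 82.6 against 10.6 and 2.71 CPM. In cDNA there were 14 and 49 reads in Undiff and 7 and 6 in Day4, or 14.8 and 23.5 against 5.31 and 2.89 CPM. The states were apart on both kits, but from a far lower Undiff level in cDNA. Pooled levels were 19.8-fold lower (counting interval 8.27 to 62.2) in Direct RNA and 5.42-fold lower (2.95 to 10.7) in cDNA. The log2 fold changes were -4.05 ± 0.77 (SE, adjusted p = 7.23e-06, DESeq2) and -2.36 ± 0.82 (adjusted p = 0.0383, DESeq2). The Direct RNA call held without any 1 library. The cDNA call was lost without each library in turn, with adjusted p of 0.151 and 0.585 without Undiff replicates 1 and 2, and 0.183 and 0.689 without Day4 replicates 1 and 2 (DESeq2).

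Etv5, of the same ETS group, lies at chr16:22381313-22439570 (minus strand). It had 92 and 296 reads in Direct RNA Undiff and 3 and 3 in Day4, or 264 and 326 against 10.6 and 4.07 CPM. In cDNA it had 395 and 394 reads in Undiff and 4 and 11 in Day4, or 416 and 189 against 3.03 and 5.30 CPM. Every Day4 library was at or below 10.6 CPM and every Undiff library was at or above 189 CPM. Pooled levels were 52.6-fold lower (counting interval 23.9 to 144) and 58.8-fold lower (35.4 to 106). The log2 fold changes of -5.38 ± 0.64 (SE, adjusted p = 1.46e-14, DESeq2) and -6.26 ± 0.59 (adjusted p = 2.93e-23, DESeq2) had the lowest adjusted p of the 10 genes on each kit. Both calls held without any 1 library, at log2 fold changes of -5.59 to -4.49 and -6.74 to -5.53.

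The 10 genes were set in order within a group by CPM per kilobase of the longest GENCODE transcript. A Direct RNA read stands for 1 molecule whatever its length, whereas cDNA reads come after PCR. The order is therefore one of CPM per kb and not of molecules, and by CPM alone it differed. In Direct RNA Undiff, mean CPM put Spry4 (113) before Etv4 (109), and Fgfr1 (74.8) before Dusp6 (65.3) and Spry2 (64.4). In Direct RNA Day4 it put Fgfr2 (41.1) before Dusp6 (35.7), and in cDNA Day4 Dusp6 (68.7) before Spry2 (57.5). In Direct RNA Undiff the level was 74.2 ± 11.1 CPM per kb for Etv5 (SD, n = 2, as for the values that follow), 53.1 ± 0.041 for Fgf4, 45.4 ± 15.4 for Etv4, 30.9 ± 18.3 for Spry2, 23.8 ± 3.87 for Spry4 and 23.3 ± 5.44 for Dusp6. Fgfr1 followed at 14.8 ± 0.045 CPM per kb, Fgfr2 at 5.65 ± 4.32, Fgf5 at 0.881 ± 1.25 and Fgfr3 at 0.389 ± 0.551. Libraries of neighbours overlapped from Fgf4 down to Dusp6, and for Fgf5 and Fgfr3. In cDNA Undiff, Spry2 came first at 261 ± 45.8 CPM per kb and overlapped with no other gene. It was followed by Etv5 at 76.1 ± 40.5 and Dusp6 at 55.3 ± 25.8, which overlapped, Fgf4 at 28.9 ± 6.88 and Spry4 at 28.6 ± 14.5, which overlapped, and Etv4 at 7.98 ± 2.57 and Fgfr2 at 5.22 ± 3.01, which also did. Fgfr1 was at 1.88 ± 0.295 CPM per kb, Fgfr3 at 0.124 ± 0.176 and Fgf5 had no read.

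The order by CPM per kb was another one in Day4, with the reversals by mean CPM given above. In Direct RNA Day4, Fgfr1 led at 25.5 ± 2.56 CPM per kb, before Dusp6 at 12.8 ± 1.58, Fgfr2 at 9.28 ± 0.731 and Fgf5 at 6.18 ± 2.76. These did not overlap with their neighbours, except Fgf5 with Spry2. Below them were Spry2 at 4.88 ± 5.06, Spry4 at 2.80 ± 2.34, Etv4 at 2.78 ± 2.32, Fgfr3 at 2.27 ± 0.857 and Etv5 at 1.84 ± 1.16, whose libraries overlapped, while Fgf4 had no read. In cDNA Day4, Spry2 at 27.5 ± 9.90 and Dusp6 at 24.6 ± 2.105 CPM per kb led and overlapped. Fgfr2 followed at 7.15 ± 5.26, Fgf5 at 4.25 ± 2.15, Fgfr1 at 3.11 ± 0.074, Spry4 at 2.85 ± 1.55, Etv4 at 1.71 ± 0.715, Etv5 at 1.05 ± 0.402, Fgfr3 at 0.698 ± 0.024 and Fgf4 at 0.159 ± 0.225. Neighbours from Fgfr2 down to Etv5 overlapped.

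**Figure D3:**
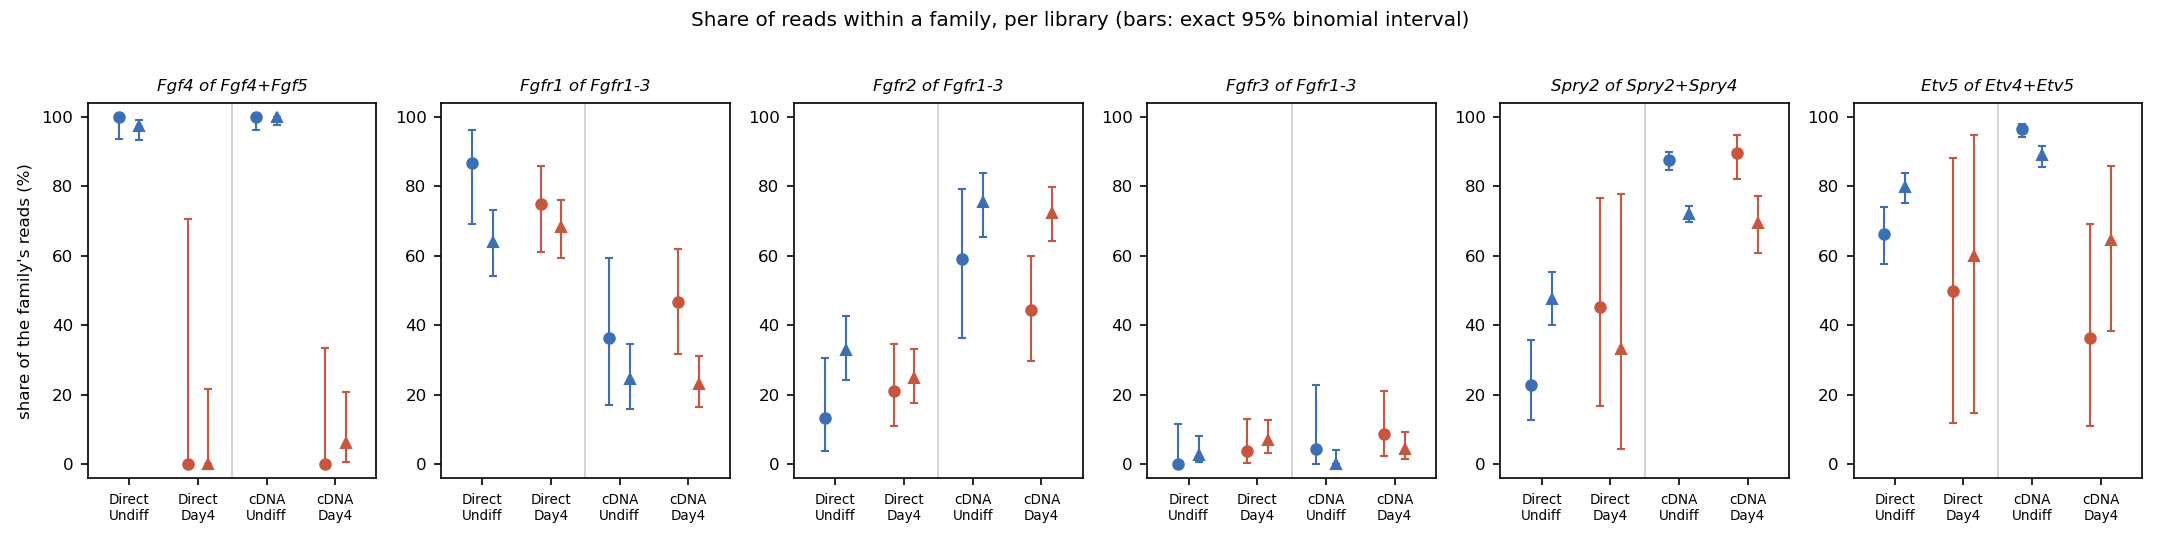
Share of reads (%) that a gene took within its family in each library, with exact 95% binomial intervals as bars, blue for Undiff, red for Day4, circles for replicate 1 and triangles for replicate 2. The Fgf4 share drops between states on both kits, while the Fgfr1 and Spry2 shares separate the kits, with Fgfr1 at 64.2% to 86.7% in Direct RNA and 23.2% to 46.7% in cDNA.

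The shares of reads within a family were compared between kits. Of the reads on the 3 receptors, Fgfr1 took 64.2% to 86.7% in the Direct RNA libraries, but 23.2% to 46.7% in the cDNA libraries. Fgfr2 took 13.3% to 33.0% in Direct RNA, but 44.4% to 75.6% in cDNA, and Fgfr3 at most 8.89% in any library. Of the reads on the Sprouty pair, Spry2 took 22.8% to 47.7% in Direct RNA, but 69.5% to 89.6% in cDNA. Within a kit, the Fgfr1, Fgfr2 and Spry2 shares of Undiff and Day4 overlapped. For the ETS pair, Etv5 took 66.2% and 79.8% of the reads in Direct RNA Undiff and 96.6% and 88.9% in cDNA Undiff. In Day4 its share was between 36.4% and 64.7%, on 5 to 17 reads of the pair a library. Shares of this kind were not tested between kits, beyond the test of single genes.

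Over both states, 4 of the 10 genes differed in level between kits by DESeq2 with state as a covariate, 3 higher and 1 lower in cDNA. Among all 10426 genes tested, 24.7% were higher and 26.6% lower in cDNA, so a difference between kits was common. Spry2 was higher in cDNA by 3.64 ± 0.43 on the log2 scale (SE, adjusted p = 1.62e-15, DESeq2), with every Undiff cDNA library above every Undiff Direct RNA library, and the same in Day4. Dusp6 was higher by 1.84 ± 0.35 (adjusted p = 1.04e-06, DESeq2) and Spry4 by 1.03 ± 0.37 (adjusted p = 0.0183, DESeq2). In CPM, however, the Spry4 libraries of the kits overlapped in each state. Its mean CPM was 113 in Direct RNA and 136 in cDNA for Undiff, and 13.3 and 13.6 for Day4. The fitted differences use DESeq2 size factors and not CPM, and for Spry4 these scales differ. Fgfr1 was lower in cDNA, at -2.24 ± 0.29 (adjusted p = 3.97e-13), with 8.43 to 15.9 CPM in the 4 cDNA libraries against 74.6 to 138 CPM in the 4 Direct RNA libraries. The Spry4 call was lost without either Direct RNA Undiff replicate, Direct RNA Day4 replicate 2, cDNA Undiff replicate 2 or cDNA Day4 replicate 2 (adjusted p of 0.0601, 0.12, 0.134, 0.203 and 0.069, in that order, DESeq2). It was also lost with the replicate number as a block (0.96, adjusted p = 0.0752, DESeq2). The RNA of the same cultures served both kits, but no source says which number in one kit matches which in the other.

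Etv4 was lower in both cDNA Undiff libraries than in both Direct RNA ones, and the kits overlapped in Day4. The fitted difference was -1.04 ± 0.48 on the log2 scale (SE), which DESeq2 did not call (adjusted p = 0.083) and edgeR did (adjusted p = 0.0112). DESeq2 called it without Direct RNA Day4 replicate 2 (adjusted p = 0.00839) and without cDNA Day4 replicate 1 (0.0262). Fgf4, Fgf5, Fgfr2, Fgfr3 and Etv5 were not called, with log2 differences from -1.06 to 0.68. For Fgf4 the fit over both states gave 0.04. In CPM, its cDNA Undiff libraries (102 and 72.8) were both below the Direct RNA Undiff libraries (161 in each). Exons of Fgfr1 overlap those of Gm16159 on the other strand and exons of Fgfr3 those of G630022F23Rik. In GENCODE, exons of Fgfr2 overlap those of Ctbp2 on the same strand, and the part of this in its level was not tested. Direct RNA was counted by strand, and for cDNA this is not stated. Gm16159 had 0 reads in all 8 libraries, and the part of the overlap in the level of Fgfr1 was not tested. Kit, amount of RNA, PCR and depth moved together and cannot be told apart.

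**Figure D4:**
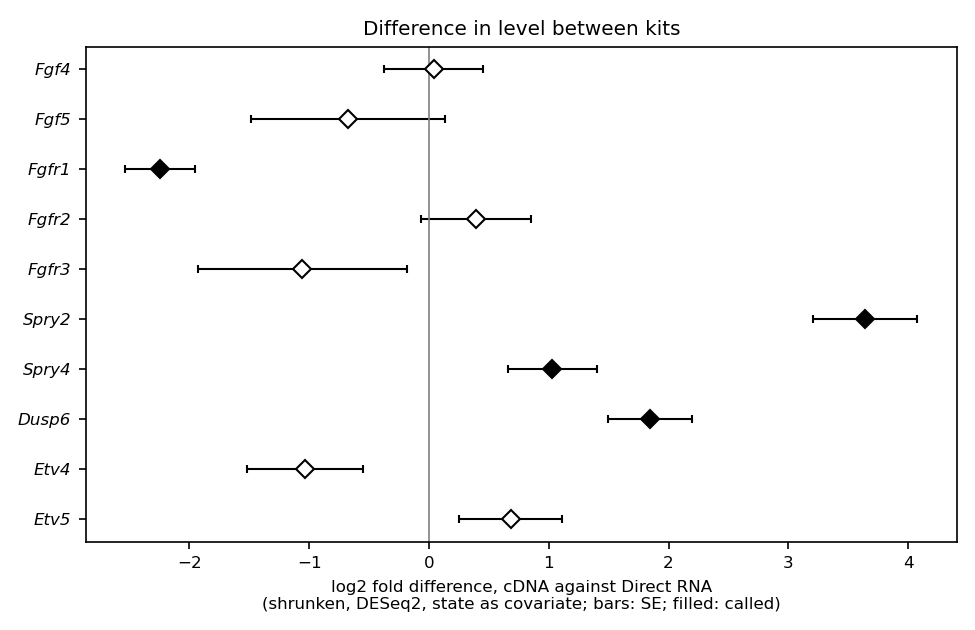
Shrunken DESeq2 log2 difference in level of cDNA against Direct RNA (x axis) for each of the 10 genes, fitted over the 8 libraries with state as a covariate, with SE bars and filled diamonds for called values. Spry2, Dusp6 and Spry4 lie right of 0 at 3.64, 1.84 and 1.03, and Fgfr1 lies left of 0 at -2.24.

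The change between states itself did not pass a test of difference between kits for any of the 10 genes. The interaction of platform and state over the 8 libraries gave 0 of 10 calls by DESeq2 and by edgeR, with an adjusted p of 1.00 for each gene, and 0 genes at an unadjusted p of 0.05 or less by DESeq2. Among all 17267 genes in that fit, 2 were called (0.0116%), so the test called almost nothing. Fgf5 had the largest interaction, 3.53 ± 2.44 on the log2 scale (SE, without shrinkage), and Etv4 the next, 1.82 ± 1.18, with 95% intervals that reach down to -1.24 and -0.49. That Dusp6 and Fgf5 were called in cDNA and not in Direct RNA therefore does not show that they changed differently there.

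Around these 10 genes, 99 other genes of the pathway were listed in 7 groups, of which 93 had a read. With a mean normalized count of at least 5, 69 were tested in Direct RNA, with 6 lower and 10 higher, and 71 in cDNA, with 4 lower and 8 higher. Of these, 8 were called in the same direction on both kits. Among the 8720 genes tested on both kits, 5.18% were called lower on both and 6.19% higher on both. The median log2 fold change was 0.39 and 0.46, also with genes without reads in a state set to their bound. Calls in either direction were 16 of 69 and 12 of 71, where 17.2% and 17.9% of all genes were called.

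**Figure D5:**
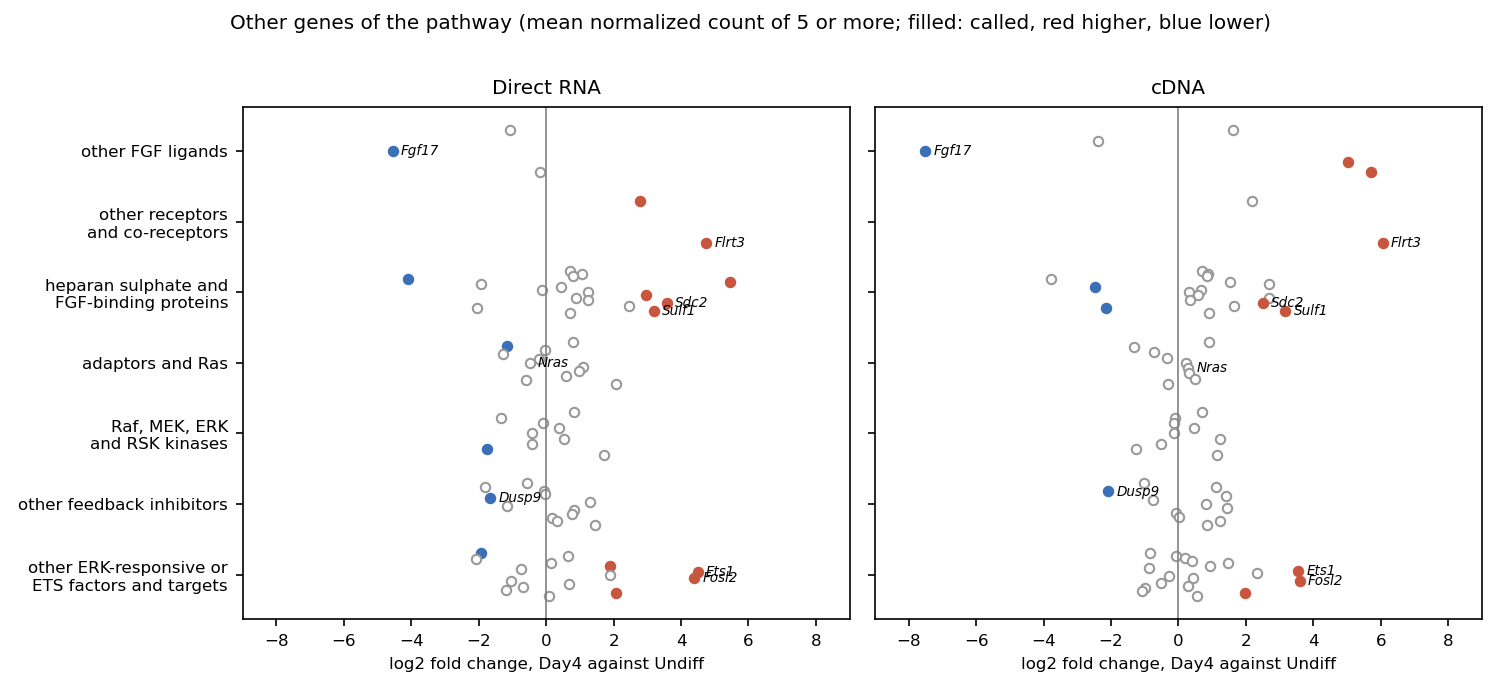
DESeq2 log2 fold change of Day4 against Undiff (x axis) for the other pathway genes with a mean normalized count of at least 5, by group, in Direct RNA (left) and cDNA (right), with called genes filled in red where higher and blue where lower. Fgf17 lies furthest left of the named genes and Flrt3 furthest right on both kits.

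Among 20 other FGF ligands, only 3 in Direct RNA and 5 in cDNA reached the mean count. Fgf17, a ligand of the Fgf8 group, had 8 and 32 reads in Direct RNA Undiff, 48 and 136 in cDNA Undiff, and no read in any Day4 library. Against 3 reads over the group, Day4 stood in Direct RNA at least 10.8-fold lower (adjusted p = 0.005, DESeq2), and in cDNA at least 68.6-fold lower (adjusted p = 8.33e-09, DESeq2). The Direct RNA call was lost without Undiff replicate 1 (adjusted p = 0.0569), Undiff replicate 2 (0.458) and Day4 replicate 2 (0.277). In cDNA, 2 further ligands were higher, Fgf9 (0 and 0 reads in Undiff, 47 and 36 in Day4) and Fgf21 (0 and 0, then 30 and 21), which are named here after their values were seen. The call of Fgf9 was lost without cDNA Day4 replicate 1 (adjusted p = 0.0831), as was that of Fgf21 (0.348), which was also lost without Undiff replicate 2 (0.135). No read was found for Fgf2, Fgf6 and Fgf16.

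Of 5 other receptors and co-receptors, Flrt3, a membrane protein that binds FGF receptors, rose on both kits. It had 2 and 1 reads in Direct RNA Undiff against 40 and 62 in Day4, and 0 and 2 in cDNA Undiff against 122 and 169 in Day4. The log2 fold change was 4.74 ± 0.85 (SE, adjusted p = 1.36e-06, DESeq2) and 6.06 ± 0.91 (adjusted p = 2.75e-09, DESeq2). Fgfrl1, an FGF receptor without a kinase domain, named after its values were seen, rose in Direct RNA (2.79 ± 0.72, adjusted p = 0.00211) and was at 2.18 ± 1.26 (adjusted p = 0.34) in cDNA. Its Direct RNA call was lost without Undiff replicate 2 (adjusted p = 0.458) and without Day4 replicate 1 (0.0998) or 2 (0.274).

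Of 18 heparan sulphate and FGF-binding proteins, 17 were tested on each kit. In Direct RNA 1 fell and 4 rose, where 7.67% of all genes fell and 9.54% rose, and in cDNA 2 fell and 2 rose, where 9.24% and 8.69% of all genes did. Sdc2, a syndecan that carries heparan sulphate, had 2.87 and 8.82 CPM in Direct RNA Undiff and 127 and 82.7 CPM in Day4, and 10.5 and 2.87 against 44.0 and 55.4 CPM in cDNA. Its log2 fold change was 3.57 ± 0.73 (SE, adjusted p = 4.25e-05, DESeq2) and 2.50 ± 0.70 (adjusted p = 0.00578, DESeq2). The cDNA call was lost without Undiff replicate 2 (adjusted p = 0.355), Day4 replicate 1 (0.196) and Day4 replicate 2 (0.351). Sulf1, which removes sulphate groups from heparan sulphate, went from 28.7 and 15.4 CPM to 310.4 and 141 CPM in Direct RNA and from 8.43 and 4.31 to 71.3 and 78.0 CPM in cDNA. Its log2 fold change was 3.19 ± 0.55 (adjusted p = 5.75e-07, DESeq2) and 3.16 ± 0.62 (adjusted p = 1.75e-05, DESeq2).

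Of 12 adaptors and Ras genes, 11 were tested in Direct RNA, where 1 fell, and 9 in cDNA, where DESeq2 called 0. Of 10 Raf, MEK, ERK and RSK kinases, 9 were tested on each kit, with 1 lower in Direct RNA and 0 called in cDNA. At an unadjusted p of 0.05 or less, 1 gene of each group passed in cDNA by DESeq2. edgeR called 4 and 2 genes of these groups in Direct RNA, and 1 of each in cDNA. Over all genes, DESeq2 called 17.2% in Direct RNA and 17.9% in cDNA, and edgeR called 3257 of 9646 and 3348 of 10271. The genes that fell in Direct RNA, both named after their values were seen, were Gab1, an adaptor (-1.15 ± 0.41, adjusted p = 0.0498, DESeq2), and Rps6ka1, an RSK kinase (-1.74 ± 0.43, adjusted p = 0.00125, DESeq2). The call of Gab1 was lost with TMM size factors (adjusted p = 0.0532), without shrinkage (0.0511), and without either Undiff replicate (0.604 and 0.46) or Day4 replicate 2 (0.763). The call of Rps6ka1 was lost without either Undiff replicate (0.224 and 0.12) or Day4 replicate 2 (0.115). Nras, with the highest mean CPM of its group over the 8 libraries though not within Direct RNA, was at 115 and 128 CPM against 84.7 and 99.0 in Direct RNA and at 547 and 574 against 668 and 1086 in cDNA, with log2 fold changes of -0.49 ± 0.46 and 0.29 ± 0.37 (adjusted p = 0.69 and 0.83, DESeq2). Of 14 other feedback inhibitors, 12 were tested in Direct RNA and 11 in cDNA. By DESeq2, Dusp9, a phosphatase of ERK like Dusp6, fell on both kits and 0 rose, with 1 higher on each kit at an unadjusted p of 0.05 or less. edgeR called Spry1 higher in Direct RNA, Rasa1 in cDNA and Errfi1 on both kits, and Dusp4 lower in Direct RNA. Dusp9 went from 224 and 292 CPM to 70.6 and 97.6 CPM in Direct RNA (log2 fold change -1.67 ± 0.42, adjusted p = 0.00136, DESeq2) and from 25.3 and 23.5 to 3.03 and 10.1 CPM in cDNA (-2.08 ± 0.75, adjusted p = 0.0493, DESeq2). Its Direct RNA call was lost without Undiff replicate 2 (adjusted p = 0.47) and Day4 replicate 1 (0.0825), and its cDNA call without any 1 library and with TMM size factors (0.0545) or without shrinkage (0.0515).

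Among 20 other ERK-responsive or ETS genes, 1 of 15 tested fell and 4 rose in Direct RNA, and 3 of 18 tested rose in cDNA, all of which were also called higher in Direct RNA. Over all genes, 17.2% and 17.9% were called in either direction. Ets1, an ETS factor of mesodermal and endothelial cells, had 1 and 2 reads in Direct RNA Undiff against 31 and 51 in Day4, and 2 and 1 against 26 and 54 in cDNA. Its log2 fold change was 4.49 ± 0.88 (SE, adjusted p = 1.46e-05, DESeq2) and 3.55 ± 0.98 (adjusted p = 0.00487, DESeq2). Fosl2, a subunit of AP-1, had 0 and 0 against 13 and 8 reads in Direct RNA, at least 8.61-fold higher in Day4 (adjusted p = 0.00952, DESeq2), and 1 and 2 against 24 and 51 in cDNA (3.59 ± 1.00, adjusted p = 0.00508, DESeq2). These ETS and AP-1 genes went up while Etv4 and Etv5 went down. The Fosl2 call in Direct RNA was lost without each library in turn (adjusted p from 0.058 to 0.677), and in cDNA the Fosl2 and Ets1 calls were lost without Undiff replicate 2 (0.187 and 0.289), Day4 replicate 1 (0.15 and 0.17) and Day4 replicate 2 (0.333 and 0.351).

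For the 8 genes with at least 100 reads over the libraries, the genes of most like pattern were sought among the 4739 genes that averaged 20 reads or more on each kit. Likeness was the root mean square difference (RMSD) of log2(CPM + 1), centred within each kit, over the 8 libraries, which share depth and kit effects across genes. Nearest to Fgf4 were Platr10, Trh and Tdgf1, the last of which encodes a co-receptor of Nodal, at 0.57 to 0.63. Nearest to Etv5 were Stmn2, Hsd17b14 and Lrrc2 at 0.62 to 0.65, and nearest to Etv4 were Naprt, Mapkapk3 and S100a6 at 0.43 to 0.54. For Spry4, Sgk1 was at 0.17, before Jade1 and Tigar at 0.45, and for Spry2, Myo10 was at 0.44, before Zbtb8a and Mapkapk3 at 0.55 and 0.60. The 3 nearest to Dusp6 were 2310061I04Rik, Fcf1 and Spint2 at 0.12 to 0.20. Fgfr1 was nearest to Mta2, Wash1 and Mob4 at 0.07 to 0.10, and Fgfr2 to Anp32a, Basp1 and Pspc1 at 0.30. Only Mapkapk3 was among the nearest of more than 1 gene.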

How the data were processed

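Whole-number read counts per gene symbol were deposited for each library. The authors made these counts with htseq-count from minimap2 alignments to mm10 and the UCSC annotation of iGenomes, with no normalization. Direct RNA was counted by strand, and the setting for cDNA is not given in the sources used here. Base-calling of Direct RNA used albacore or Guppy, followed by Poreplex, and porechop trimmed the cDNA adapters. The 5 counters of reads given to no gene, 38.1% to 61.7% of a library, stayed out of all totals and tests.

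Libraries were grouped by their labels. DESeq2 1.42.0 (R 4.3.3) was run with the settings of the study's methods: a Wald test with shrunken log2 fold changes, Cook's cutoff and independent filtering off, and p-values adjusted by Benjamini-Hochberg over all genes of the fit. The DESeq2 fits scaled libraries by size factors, whereas CPM divides by the reads on genes, so fitted changes and CPM ratios can differ. The states were compared on each kit alone. The fits between kits and of the interaction used the 8 libraries, the former with state as covariate and the latter without shrinkage. edgeR 4.0.16, TMM size factors, a minimum of 10 reads, a replicate block, Cook's cutoff with independent filtering, no shrinkage and leaving out each library were tried as alternatives. The fits were tested on simulated counts. The 10 genes, the lists and the tests were chosen with earlier results of these data known.

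By rule, the genes named were the 10, the 2 of each pathway group with the largest mean change among those called alike on both kits (otherwise the gene of highest CPM), and the 3 of nearest pattern to each member with at least 100 reads. The gene that this rule names in the kinase group is not reported here, and other genes, such as Fgf9, Fgf21, Fgfrl1, Gab1 and Rps6ka1, were named after their values were seen. Replicates were compared by a chi-square over genes with at least 20 reads, which gave 2.68 to 14.9 per degree of freedom, so no pair agreed within sampling noise. Intervals are exact at 95% and, like the floor of 3 reads, cover counting error only, since PCR reads are not independent molecules. Gene positions and upstream sequences are from RefSeq (GRCm38.p6), lengths and exon overlaps from GENCODE vM21 (GRCm38), the assembly that mm10 also names.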

Additional observations from a re-analysis of the deposited data

Results flagged for a closer look

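The CPM of Nras was lower in both Day4 libraries than in both Undiff libraries in Direct RNA, and higher in both in cDNA. Neither change was called (log2 fold change -0.49 and 0.29, adjusted p = 0.69 and 0.83, DESeq2). Libraries of the states did not overlap for 67.6% of all genes tested in Direct RNA and 66.3% in cDNA. The interaction of 0.77 ± 0.50 on the log2 scale (SE, adjusted p = 1.00, DESeq2, 8 libraries) did not pass the test.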

How the results depend on the processing

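Depth limits several values, among them those of Fgfr3 and the Day4 values of Fgf4, which rest on 0 to 9 reads a library. With 2 replicates, a fit without 1 library takes the spread of the lone sample from the other libraries. Scaling with TMM size factors, a minimum of 10 reads, Cook's cutoff with independent filtering and no shrinkage changed no state call of the 10 genes, nor did edgeR. In the alternatives without left-out libraries, 58 of 60 values of the 10 genes kept direction and call in Direct RNA, as did 58 of 60 in cDNA. When a library was left out, 33 of 40 did in Direct RNA, and 27 of 40 in cDNA.

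With edgeR, Direct RNA had 3257 genes called in place of 1660, cDNA 3348 in place of 1842, and the interaction 14 in place of 2. edgeR called 13 other pathway genes lower and 19 higher in Direct RNA, 7 lower and 17 higher in cDNA, and 2 of the 10 genes lower in cDNA than in Direct RNA. In cDNA, 7 other pathway genes were lower with the minimum of 10 reads and also with Cook's cutoff and independent filtering. With TMM size factors 1 gene was called in the interaction.

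Same-numbered libraries of the states share only a number by the sources. The kits share the RNAs of a state, but no source ties the numbers of one kit to those of the other. Replicate differences of the states correlated at 0.21 for Direct RNA, and at 0.50 for cDNA, and those of the kits at 0.12 for Undiff and -0.42 for Day4, across 1395 genes that are not independent. With the number as a replicate block, 843 genes were called in Direct RNA. Of the 10 genes 3 were then lower, as Fgf4 (-1.66, adjusted p = 0.834, DESeq2) and Spry2 (-2.49, 0.166) were not called, and 3 other pathway genes were lower and 5 higher. Fgf17 was then called on neither kit (-3.89, adjusted p = 0.0643, in Direct RNA, and -1.76, 0.727, in cDNA, DESeq2), nor were Fosl2 (3.77, 0.0875), Gab1 (-1.16, 0.134) and Fgfrl1 (2.63, 0.0528) in Direct RNA. In cDNA under the block 0 of the 10 genes were higher (Fgf5 3.57, adjusted p = 0.107, DESeq2), Etv4 was not called (-2.21, 0.191), nor was Dusp9 (-2.04, 0.184), and 2 other pathway genes were lower. Under the block, Spry4 and Etv5 alone of the 10 genes were still called lower on both kits. Between kits, the block turned the difference of Fgf4 from 0.04 to -0.031 and ended the call of Spry4 (0.96, adjusted p = 0.0752, DESeq2). With the cDNA Day4 numbers crossed in that block, an alternative chosen after seeing the data, 5081 genes differed between kits and 1 was called in the interaction.

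Without 1 library, 393 to 797 genes were called in Direct RNA, 709 to 1020 in cDNA and 0 to 13 in the interaction. Of the 10 genes 3 to 5 were then lower in Direct RNA, 0 higher in cDNA, and 1 to 2 lower in cDNA than in Direct RNA. Of the other pathway genes, 0 to 4 were lower and 5 to 6 higher in Direct RNA, and 2 to 3 lower and 2 to 8 higher in cDNA. Signs turned for values that had not been called. For Fgfr2 the state change was between -0.12 and 1.44 in Direct RNA, and in cDNA between -0.70 and 0.68, and the kit difference of Fgf4 from -0.26 to 0.34. Interactions ranged from -0.75 to 1.79 for Fgf4, -1.69 to 0.15 for Fgfr2, -1.62 to 2.65 for Fgfr3, -1.49 to 1.16 for Spry2, -1.09 to 0.82 for Spry4 and -1.04 to 0.21 for Dusp6. The cause of these changes was not tested.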
